A study of Homo sapiens with 6 samples.

Results

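The genes described here are 10 chemokine genes, CCL2, CCL5, CCL20, CXCL1, CXCL2, CXCL3, CXCL8, CXCL12, CXCL16 and CX3CL1, chosen by name from the 37902 genes of the table and found there by Ensembl gene ID. They were measured in ARPE-19, an established human cell line from the retinal pigment epithelium (RPE), the pigmented cell layer behind the photoreceptors. The wild type (WT) line, labelled wildtype, was compared with the POLDIP2 KO line, labelled POLDIP knockout, with 3 biological replicates each, all under regular maintenance and labelled day 3. For the POLDIP2 KO line, ARPE-19 cells received SpCas9 and a guide to the POLDIP2 coding sequence from a lentiviral vector and were selected with puromycin and expanded. The study's methods describe no cloning step for it, and no vector or selection for WT, so the edit, the vector and the selection cannot be told apart in this comparison. The labels do not say what separates the replicates of a line, and there is 1 line of each genotype, so p values measure the spread between these libraries.

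Chemokines are small secreted proteins that guide migrating cells by binding G protein-coupled receptors. CC chemokines such as CCL2 and CCL5 mainly attract monocytes and lymphocytes, and the CXC chemokines CXCL1, CXCL2, CXCL3 and CXCL8 attract neutrophils through CXCR1 and CXCR2. CXCL16 and CX3CL1 are made as membrane-bound proteins and are released by proteases. RPE cells are known to secrete CCL2 and CXCL8 when they are exposed to inflammatory cytokines such as IL-1 beta and TNF, which act through the transcription factor NF-kB.

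The libraries held 31532797 to 45795509 recovered reads each. The POLDIP2 normalised counts, that is reads divided by a size factor for each library, were 3919, 4827 and 4798 in WT and 1063, 1248 and 1143 in POLDIP2 KO, so all 6 libraries went with their labels. Of 14 RPE markers, 11 had a mean normalised count of at least 10, and RPE65 and TTR, which mark mature RPE, were at 0 in every library. The summed RPE markers, mostly the keratins KRT8 and KRT18, ranged from 76254 to 92303 in WT and from 72608 to 100293 in POLDIP2 KO. LRAT, an enzyme of the visual cycle, was lower in each POLDIP2 KO library, with normalised counts of 106, 75.3 and 29.2 in WT and 22.1, 24.4 and 28.8 in POLDIP2 KO (log2 difference -1.27, limma unadjusted p = 0.0397, adjusted 0.731). OTX2, RLBP1 and PMEL had log2 differences of -0.26, -0.64 and -0.43 and overlapping libraries (limma adjusted p = 0.955 to 0.9998). LRAT and these 3 are named because they had the smallest p values of the list. Over all 11 tested RPE markers the median log2 difference was -0.02, so the named markers do not stand for the list. The 11 leukocyte markers summed to between 87.7 and 110 in WT and between 56.6 and 74.1 in POLDIP2 KO. Of these, TYROBP, CD3D, CD3E and MS4A1 were at 0 in all libraries. The other 7 each had more than 3 reads in at least 1 library, so leukocyte marker reads were present. CSF1R, ITGAM and LYZ had reads in every library, and CSF1R was lower in each POLDIP2 KO library, with 48.2, 24.1 and 15.7 in WT and 4.92, 14.7 and 11.9 in POLDIP2 KO (log2 difference -1.37, limma adjusted p = 0.819). ITGAM and LYZ overlapped between the lines, with log2 differences of -0.86 and -0.36 (limma adjusted p = 0.9998 for each). The leukocyte sum did not overlap between the lines and was lower in POLDIP2 KO, and its part in the chemokine values was not tested. Of the 11 leukocyte markers only CSF1R, ITGAM and LYZ were tested, so these 3 do not stand for the list. The lower sum does not show that each marker was lower. The 6 endothelial markers summed to between 39.7 and 201 in WT and between 46.7 and 149 in POLDIP2 KO, and of these KDR and VWF were tested, with log2 differences of 0.04 and 0.0029 (limma adjusted p = 0.9998 for each). In bulk RNA a change in the number of expressing cells and a change in RNA per cell cannot be told apart.

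All members that attract neutrophils, and the monocyte attractant CCL2, had normalised counts without overlap between the lines, higher in POLDIP2 KO, while CCL5 and CXCL16 overlapped between the lines. Of the 10 members, 7 had a mean of at least 10 and were tested, with the filter set on the mean over all 6 libraries. CCL2 alone passed both thresholds, an adjusted p under 0.05 and a fold change over 1.5, in limma's test with Benjamini-Hochberg adjustment over 14684 genes. By the same rule 0.0817% of all tested genes were called higher and 0.0885% lower, and 0 members were called lower (0 too by DESeq2, and 0 of the 7 had an unadjusted p under 0.05 in that direction). CXCL12, which the filter left out, had lower values in POLDIP2 KO and an unadjusted limma p of 0.0214 in the fit without the filter. The block for the replicate number left CCL2 as the only call in limma, where 0.116% of genes were called higher. On the recovered reads edgeR called CCL2 (0.0613% of genes higher) but with the block no member (0.0204%). DESeq2 called CCL2, CXCL1, CXCL2 and CXCL8 (0.756%), and with the block also CXCL3 (1.25%). At an unadjusted p under 0.05, 5 members were higher, against 3.0% of all tested genes. CXCL1, among these 5, passed the filter only through POLDIP2 KO, where it was high, so these counts and the median are descriptions. The same 5 members had libraries that did not overlap between the lines, against 5.46% of the tested genes in that direction. The median log2 difference, POLDIP2 KO minus WT, was 2.74 over the 7 tested members and -0.0003 over all genes tested.

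**Figure D1:**
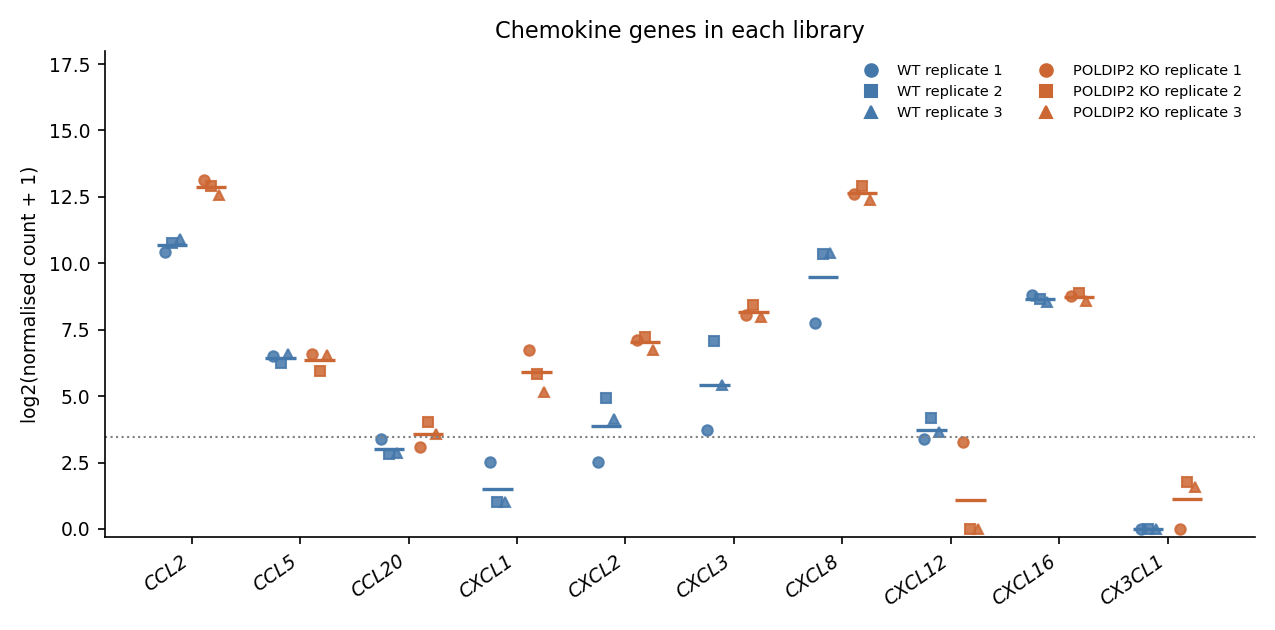
Each member's level in each library, as log2(normalised count + 1), with WT in blue and POLDIP2 KO in orange, one marker shape per replicate number, and a bar at the mean of each line. The dotted line marks a normalised count of 10, the mean a gene needed to be tested. CCL2, CXCL1, CXCL2, CXCL3 and CXCL8 lie higher in all POLDIP2 KO libraries, and WT replicate 1 is the lowest library for CXCL8, CXCL3 and CXCL2.

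CCL2 (ENSG00000108691, chr17:34255274-34257208, plus strand, GRCh38) encodes MCP-1, which attracts monocytes through CCR2. Its normalised counts in replicates 1, 2 and 3 were 1375, 1734 and 1935 for WT and 9014, 7593 and 6021 for POLDIP2 KO, the order used for all values below. The lowest POLDIP2 KO library was above the highest WT library, and replicate 1 was the lowest of WT and the highest of POLDIP2 KO. The log2 difference was 2.16 (SE 0.188, 95% interval 1.72 to 2.60, limma adjusted p = 0.0204), a fold change of 4.47 with an interval of 3.28 to 6.08. Between libraries of the same number the ratio of POLDIP2 KO to WT was 6.55, 4.38 and 3.11. When any of the 6 libraries was left out, the log2 difference lay between 2.02 and 2.31 and the limma adjusted p between 0.0517 and 0.114, so the call was lost each time. With a block for the replicate number, limma gave an adjusted p of 0.0477, and edgeR without and with the block 0.0287 and 0.0689.

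CXCL8 (ENSG00000169429, chr4:73740519-73743716, plus strand) encodes interleukin 8, a neutrophil attractant and a ligand of CXCR1 and CXCR2. Its normalised counts were 213, 1293 and 1323 in WT and 6279, 7717 and 5404 in POLDIP2 KO, with means of 943 ± 633 and 6467 ± 1168 (SD, n = 3). WT replicate 1 stood far below the other WT libraries, and all POLDIP2 KO libraries were above all WT libraries. The log2 difference was 3.16 (SE 0.674, 95% interval 1.57 to 4.75, limma adjusted p = 0.218), which did not pass the test. Without WT replicate 1 the log2 difference was 2.29, with a narrower interval of 1.88 to 2.70, and CXCL8 then passed with a limma adjusted p of 0.0338, while CCL2 did not (0.0624). Left out in turn, the other 5 libraries gave limma adjusted p values of 0.297 to 0.595. The ratio of POLDIP2 KO to WT was 29.5 in replicate 1, 5.97 in replicate 2 and 4.08 in replicate 3.

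CXCL1, CXCL2 and CXCL3 encode the GRO chemokines alpha, beta and gamma, ligands of CXCR2. CXCL1 (ENSG00000163739, chr4:73869393-73871308, plus strand) was close to 0 in WT, with normalised counts of 4.72, 1.00 and 1.04, and had 105, 56.2 and 34.8 in POLDIP2 KO. In recovered reads these are 5, 1 and 1 against 85, 69 and 35. Over the lines this is 7 against 189 reads, a depth-adjusted ratio of 26.7 with an exact 95% interval of 12.7 to 67.3 that covers counting error only. The log2 difference was 4.39 (SE 0.671, 95% interval 2.80 to 5.98, limma adjusted p = 0.0862). It is the largest log2 difference of the 7 tested members, although it did not pass the test, and the value of so low a gene depends on the pseudocount (3.19 with a pseudocount of 5 and 4.69 with 0.5).

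CXCL2 (ENSG00000081041, chr4:74097040-74099196, minus strand) had normalised counts of 4.72, 29.1 and 16.7 in WT and 137, 148 and 106 in POLDIP2 KO. The POLDIP2 KO libraries lay close together and well above WT, and WT replicate 1 was the lowest. Its log2 difference was 3.16 (SE 0.609, 95% interval 1.73 to 4.60, limma adjusted p = 0.181), and it was 2.49 without WT replicate 1. CXCL3 (ENSG00000163734, chr4:74036589-74038807, minus strand) had normalised counts of 12.3, 134 and 41.8 in WT and 267, 339 and 252 in POLDIP2 KO. Here the WT libraries spread most, with a mean of 62.8 ± 63.8 against 286 ± 46.7 in POLDIP2 KO (SD, n = 3). The estimated log2 difference was 2.74 (SE 0.762, 95% interval 0.94 to 4.54, limma adjusted p = 0.395), and it was 1.90 without WT replicate 1 and 3.58 without WT replicate 2. Within replicate numbers the ratio of POLDIP2 KO to WT ranged from 2.52 to 21.7 for CXCL3, from 5.09 to 28.9 for CXCL2 and from 22.1 to 56.0 for CXCL1, with replicate 1 the largest for CXCL2 and CXCL3 and the smallest for CXCL1.

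**Figure D2:**
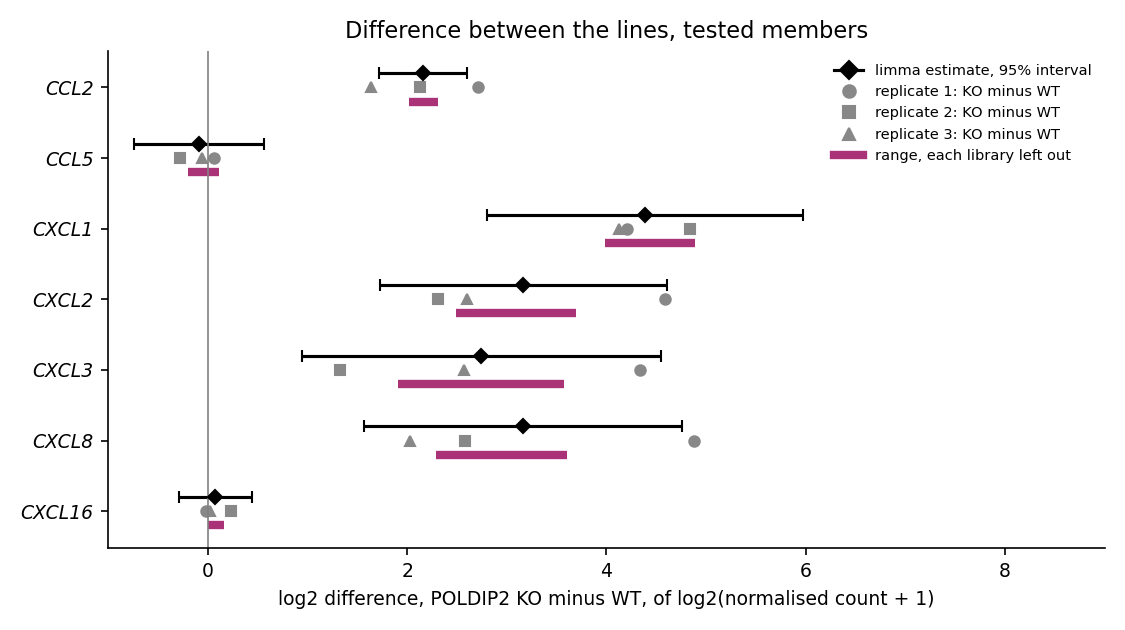
The log2 difference, POLDIP2 KO minus WT, of each tested member on the log2(normalised count + 1) scale. Diamonds are the limma estimates with 95% intervals (3 libraries per line), grey markers the differences between libraries of the same replicate number, and the thick bars the range of the estimate when each of the 6 libraries was left out. The intervals of CCL2, CXCL1, CXCL2, CXCL3 and CXCL8 lie above 0 and those of CCL5 and CXCL16 include 0, and CCL2 has the narrowest interval of the first 5.

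The GRO genes are near-identical paralogs, and reads of 100 bases may not always be assigned to the right copy. Their coding sequences, 324 bases each, were 93.5% identical between CXCL1 and CXCL2, 90.7% between CXCL1 and CXCL3 and 94.4% between CXCL2 and CXCL3, but 57.0% to 59.0% identical to that of CXCL8. Coding bases 100 to 159 of the annotated transcripts (GENCODE release 44) show how close they are. Capitals mark the 4 of 60 positions that are not the same in all 3 genes.
CXCL1: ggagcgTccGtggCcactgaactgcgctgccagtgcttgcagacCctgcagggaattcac
CXCL2: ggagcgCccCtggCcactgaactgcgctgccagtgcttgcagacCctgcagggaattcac
CXCL3: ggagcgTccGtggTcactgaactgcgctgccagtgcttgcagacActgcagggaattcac

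Whole transcripts were also compared in 31-base stretches with the other genes among CXCL1, CXCL2, CXCL3, CXCL8, CXCL5 and CXCL6. Of these stretches, 14.4% for CXCL1, 21.7% for CXCL2 and 9.57% for CXCL3 occurred in another of these genes, against 0% for CXCL8. No 100-base stretch was shared. Where reads were split between the copies, their sum is the safer value. Summed, the GRO genes had normalised counts of 21.7, 165 and 59.5 in WT and 508, 544 and 393 in POLDIP2 KO. The lines did not overlap, and the log2 difference of the sum was 2.97 (SE 0.655, 95% interval 1.42 to 4.52, limma adjusted p = 0.234). It was 2.26 without WT replicate 1 and 3.69 without WT replicate 2. CXCL3 took 52.5% to 81.7% of the summed reads in each library. CXCL1 took 21.7% in WT replicate 1, which rests on 23 summed reads, and 0.610% and 1.75% in WT replicates 2 and 3, against 20.6%, 10.3% and 8.84% in POLDIP2 KO.

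The GRO genes and CXCL8 lie within a chemokine cluster on the long arm of chromosome 4, and RefSeq (GRCh38.p14) gives promoters for them. A 90-base stretch of each is shown because these members had the larger differences. It runs from 140 to 51 bases before the start given by RefSeq, read 5′ to 3′ on the gene's strand. The RefSeq starts are not all those of the GENCODE gene positions above. The CXCL3 stretch lies partly inside its GENCODE gene, and the CXCL8 stretch ends directly before its GENCODE gene. Capitals mark GGAATTTCC, a sequence of the kind NF-kB binds, and in CXCL8 also TGANTCA, the AP-1 motif.
CXCL1, chr4:73869253-73869342, plus strand: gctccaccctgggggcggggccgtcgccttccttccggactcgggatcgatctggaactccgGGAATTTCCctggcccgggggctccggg
CXCL2, chr4:74099246-74099335, minus strand: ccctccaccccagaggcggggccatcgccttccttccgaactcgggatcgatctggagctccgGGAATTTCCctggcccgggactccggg
CXCL3, chr4:74038740-74038829, minus strand: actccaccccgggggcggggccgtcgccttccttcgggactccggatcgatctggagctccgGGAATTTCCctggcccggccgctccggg
CXCL8, chr4:73740429-73740518, plus strand: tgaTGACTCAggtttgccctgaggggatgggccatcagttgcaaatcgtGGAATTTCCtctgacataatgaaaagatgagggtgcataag

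GGAATTTCC began 78, 77, 78 and 91 bases before the RefSeq start of CXCL1, CXCL2, CXCL3 and CXCL8. Searched on both strands in 35116 RefSeq promoters, each from 250 bases before to 50 bases after the start, it occurred in 162, or 0.461%. TGANTCA occurred in 7.71% and the TATA box letters TATAAA in 11.5% of these promoters, and among these 4 genes CXCL8 alone held them, at 137 and 31 bases before its start. Of the 10 members, 6 matched the promoter table, CCL20 and CXCL12 included, and CCL2, CCL5, CXCL16 and CX3CL1 did not. Neither CCL20 nor CXCL12 held GGAATTTCC. The CCL20 promoter held the kappa B consensus motif GGGRNWYYCC, 79 bases before its start, a motif found in 5.91% of all promoters. Here R is A or G, W is A or T, Y is C or T and N is any base. This motif can overlap GGAATTTCC and was also held by CXCL1, CXCL2 and CXCL3, but not by CXCL8. CXCL12 held none of the motifs searched. Among 27 other chemokine ligand genes with a promoter, CXCL5, CXCL6, CXCL10 and CXCL11 held GGAATTTCC too. None of these 4 had more than 2 reads in a library, so the letters were present also in chemokine genes near 0 in both lines. Of the other ligands, CCL22, CXCL5, CXCL6, CXCL10 and CXCL11 held the consensus motif. The motifs were chosen after the sequences were seen, and a match is a description of the letters.

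Within the chromosome 4 cluster the other chemokine genes were near 0. CXCL6, PF4V1, PF4, PPBP and CXCL5 lie between CXCL8 and CXCL3, 96.1, 113, 240, 246 and 255 kb from CXCL8, and had at most 2 reads in any library. CXCL1, CXCL3 and CXCL2, at 129, 296 and 357 kb, were the members with reads in this stretch beside CXCL8. The CC cluster on chromosome 17 was alike in this respect. The genes next to CCL2, CCL7 at 14.9 kb, CCL11 at 30.5 kb, CCL8 at 64.2 kb, CCL13 at 101 kb and CCL1 at 105 kb, had 0 or 1 read in every library. CCL5, 1616 kb away, was measured in both lines.

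**Figure D3:**
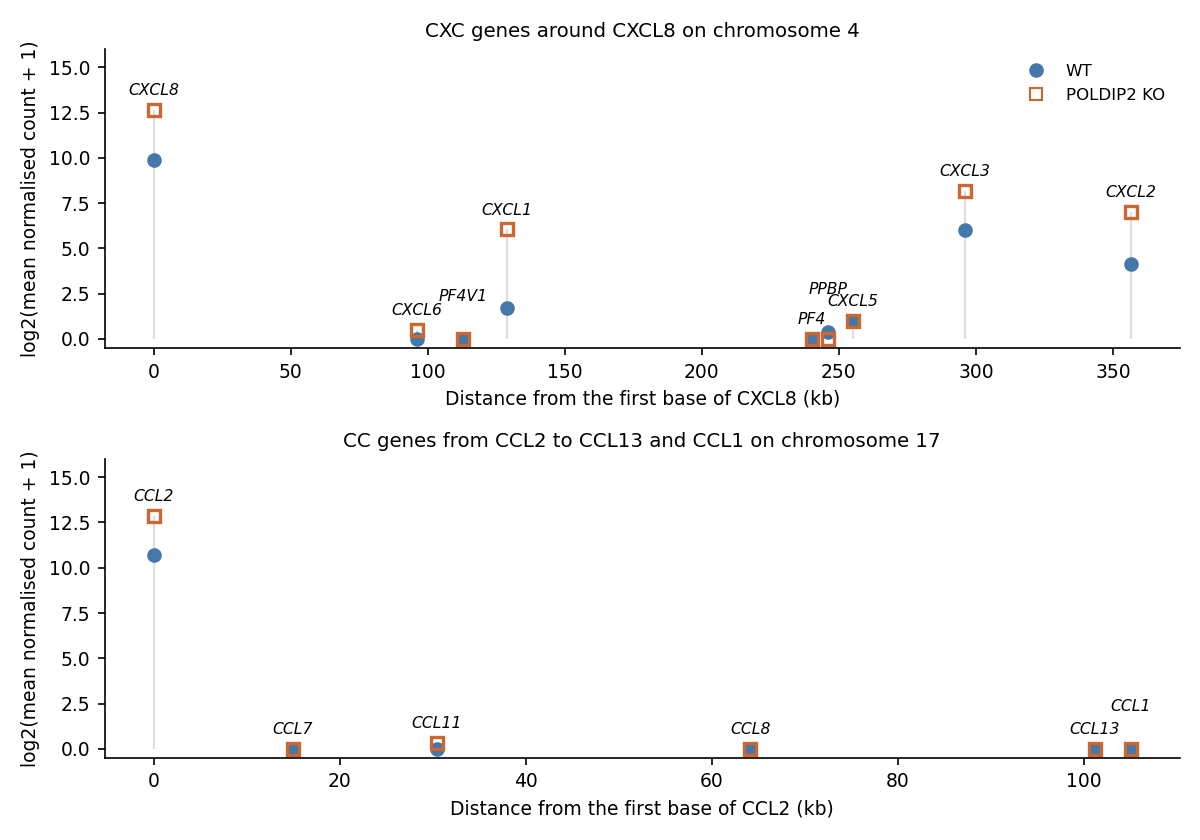
Mean level in each line, as log2(mean normalised count + 1) of 3 libraries, of the chemokine genes around CXCL8 on chromosome 4 (upper plot) and next to CCL2 on chromosome 17 (lower plot), by distance in kb from the lowest coordinate of CXCL8 or CCL2. Circles are WT and open squares POLDIP2 KO. CXCL8, CXCL1, CXCL3, CXCL2 and CCL2 stand above neighbours with at most 2 reads in any library.

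CCL5 and CXCL16 did not pass the test in either direction. CCL5 (ENSG00000271503, chr17:35871491-35880793, minus strand) encodes RANTES, which attracts T cells and monocytes. Its normalised counts were 90.7, 74.2 and 96.1 in WT and 94.7, 61.1 and 92.3 in POLDIP2 KO, and replicate 2 was the lowest of both lines. Its log2 difference was -0.09, with a 95% interval of -0.74 to 0.56 (limma adjusted p = 0.9998). CXCL16 (ENSG00000161921, chr17:4733533-4739928, minus strand) encodes a membrane-bound chemokine that is also a scavenger receptor for oxidised lipoprotein. Its normalised counts were 442, 402 and 372 in WT and 435, 471 and 377 in POLDIP2 KO, and the lines overlapped. The log2 difference was 0.08, with a 95% interval of -0.29 to 0.44 (limma adjusted p = 0.9998). The upper ends of these intervals lie below the lower end of the interval of CCL2.

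The other 3 members were near 0 and were not tested. CCL20 (ENSG00000115009, chr2:227805739-227817564, plus strand), which attracts CCR6-bearing lymphocytes and dendritic cells, had 10, 6 and 6 reads in WT and 6, 19 and 11 in POLDIP2 KO. The lines overlapped, and the depth-adjusted ratio of POLDIP2 KO to WT was 1.62 with a counting interval of 0.926 to 2.89, which includes no difference. CXCL12 (ENSG00000107562, chr10:44370165-44386493, minus strand), the ligand of CXCR4 and ACKR3, had 10, 17 and 11 reads in WT and 7, 0 and 0 in POLDIP2 KO. All reads of the POLDIP2 KO line came from replicate 1, and that library was just below the lowest WT library. The ratio of WT to POLDIP2 KO was 5.49 with a counting interval of 2.42 to 14.6, which does not cover the spread between the libraries of a line. In the fit without the filter on low genes, the log2 difference of CXCL12 was -2.65 (limma adjusted p = 0.638). That value was -3.28 with a pseudocount of 0.5, -1.32 with a pseudocount of 5, and -3.73 without POLDIP2 KO replicate 1. CX3CL1 (ENSG00000006210, chr16:57372477-57385044, plus strand), or fractalkine, had 0 reads in all WT libraries and 0, 3 and 2 in POLDIP2 KO. All 6 libraries were at or under the floor of 3 reads, so no fold change is given, and a difference was not detectable at this depth.

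Set against each other per kb of transcript, the members formed a steep order in both lines. In WT, CCL2 had a mean of 2269 normalised counts per kb, followed by CXCL8 with 574, CXCL16 with 174, CCL5 with 67.0, CXCL3 with 58.4, CXCL2 with 15.1, CCL20 with 8.69, CXCL12 with 6.57, CXCL1 with 1.92 and CX3CL1 with 0. Of these neighbours, CXCL8 and CXCL16, CCL5 and CXCL3, CXCL3 and CXCL2, CXCL2 and CCL20, and CCL20 and CXCL12 overlapped in range over the libraries. In POLDIP2 KO, CCL2 with 10179 and CXCL8 with 3938 per kb again led, then CXCL3 with 266, CXCL16 with 184, CXCL2 with 117, CCL5 with 63.7, CXCL1 with 55.5, CCL20 with 13.5, CXCL12 with 1.49 and CX3CL1 with 0.449. There only CCL5 and CXCL1, and CXCL12 and CX3CL1, overlapped among neighbours. CXCL3 thus stood below CXCL16 in every WT library and above it in every POLDIP2 KO library.

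Summed over all chemokine ligand genes in the table, the members and 35 others, the level was 2335, 3558 and 3759 normalised counts per kb in WT and 16778, 15765 and 12077 in POLDIP2 KO. CCL2 took 65.0% to 79.5% of this sum in every library. CXCL8 took 5.54%, 22.1% and 21.4% in WT and 22.8%, 29.8% and 27.2% in POLDIP2 KO, so that WT replicate 1 was the lowest in its share as well as in its level. The GRO genes together took 0.843%, 4.27% and 1.46% in WT and 2.74%, 3.15% and 2.98% in POLDIP2 KO. The shares of the GRO genes overlapped between the lines, while those of CXCL8 were higher in all POLDIP2 KO libraries. CXCL16 took 4.25% to 8.15% in WT and 1.12% to 1.34% in POLDIP2 KO, a lower share of a larger sum.

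**Figure D4:**
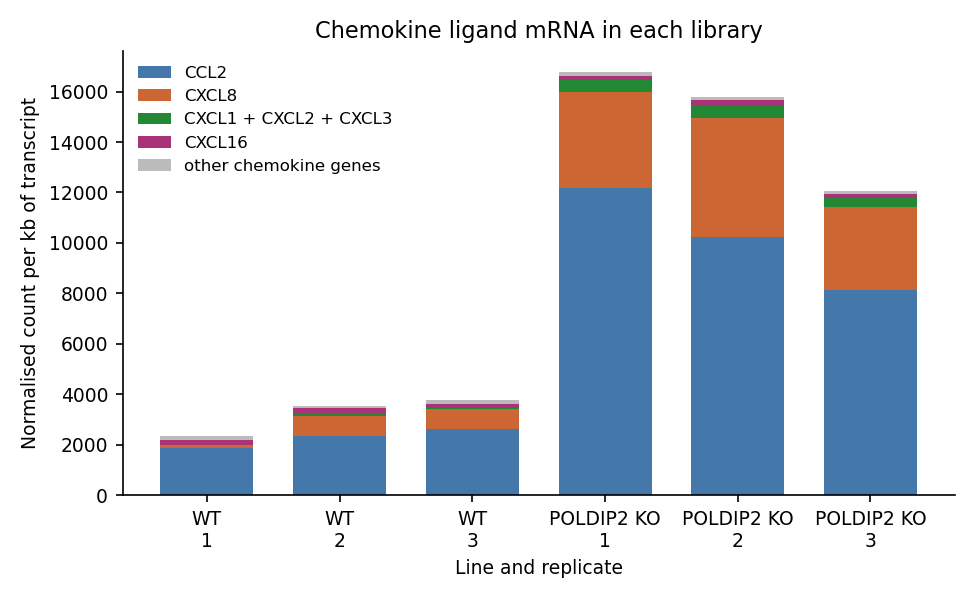
Summed chemokine ligand mRNA in each library, in normalised counts per kb of transcript, with the 3 WT libraries to the left and the 3 POLDIP2 KO libraries to the right. Colours show CCL2, CXCL8, the sum of CXCL1, CXCL2 and CXCL3, CXCL16, and all other chemokine genes. The WT sums reach from 2335 to 3759 and the POLDIP2 KO sums from 12077 to 16778, and CCL2 is the largest part of each bar.

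Of 36 other chemokine ligand genes, 35 were in the table, 22 were at 0 in every library and 29 had 3 reads or fewer in every library. Only CXCL14, an epithelial chemokine, had a mean of at least 10, with normalised counts of 17, 29.1 and 31.3 in WT and 8.61, 20.4 and 29.8 in POLDIP2 KO (log2 difference -0.49, limma adjusted p = 0.9998). The lines overlapped for it. The interferon-induced CXCL9 and CXCL11 were at 0 throughout, and CXCL10 had 1 read in a single POLDIP2 KO library.

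Most receptors of these ligands were at or near 0 in both lines. Of 23 chemokine receptor genes, 11 were at 0 in every library, among them CCR2, CXCR6 and CX3CR1, the receptors of CCL2, CXCL16 and CX3CL1. CXCR1 had 1 read in all, in WT replicate 2, and CXCR2 had normalised counts of 1.89, 0 and 4.18 in WT and 0, 0 and 0.993 in POLDIP2 KO. Of the 5 receptors tested, 0 were called by limma and by edgeR. An unadjusted limma p under 0.05 was found for 2 of them, against 951 of all 14684 genes, and DESeq2 called 1 higher, against 0.756% of genes.

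That receptor was CCRL2, an atypical receptor that presents the chemoattractant chemerin. Its normalised counts were 0.945, 4.01 and 7.31 in WT and 59.0, 36.6 and 28.8 in POLDIP2 KO, without overlap, and it passed the filter only through POLDIP2 KO. Its log2 difference was 3.23 (SE 0.674, limma adjusted p = 0.210, DESeq2 0.00727). CXCR4, the signalling receptor of CXCL12, averaged 148 ± 42.1 in WT and 81.5 ± 24.7 in POLDIP2 KO as normalised counts (SD, n = 3), with overlapping libraries and a log2 difference of -0.85 (limma adjusted p = 0.683). ACKR3, which scavenges CXCL12, had 3091 ± 778 and 2547 ± 1377 (SD, n = 3) and a log2 difference of -0.38 (limma adjusted p = 0.9998). CCR6, the receptor of CCL20, had 14.6 ± 6.64 and 9.66 ± 4.33 (SD, n = 3) with a log2 difference of -0.54, and CCR10 a log2 difference of 0.64 (limma adjusted p = 0.9998 for each).

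Among 22 genes that induce chemokines or belong to the NF-kB system, 20 were tested. Limma called 3 of them higher (0.0817% of all genes) and 0 lower, with the replicate block 2 higher (0.116%), edgeR 3 higher (0.0613%) and DESeq2 5 higher (0.756%). The libraries of 7 did not overlap, higher in POLDIP2 KO, against 5.46% of all genes. IL1B, the cytokine IL-1 beta, had normalised counts of 5.67, 10.03 and 4.18 in WT and 351, 485 and 200 in POLDIP2 KO (log2 difference 5.49, limma adjusted p = 0.0204), and passed the filter only through POLDIP2 KO. NFKBIZ, an NF-kB cofactor, had a log2 difference of 1.54 (limma adjusted p = 0.0231). TNFAIP3, the NF-kB inhibitor A20, had 2.26 (limma adjusted p = 0.0340), and 0.0586 with the replicate block. TLR4, the receptor for bacterial lipopolysaccharide, had 0.66 (limma adjusted p = 0.181) and did not pass. TNF was at 0 in every library, and the NF-kB subunit genes NFKB1 and RELA had log2 differences of 0.12 and 0.33 (limma adjusted p = 0.9998 and 0.933). Since the list was chosen with earlier results of these libraries known, its count is no independent evidence of direction.

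Of 9 enzymes that cleave chemokines, 5 were tested and 0 were called by limma and by edgeR. An unadjusted limma p under 0.05 was found for 1, against 951 of 14684 genes, and 1 was called higher by DESeq2, against 0.756%. MMP2, which clips CCL7 and CXCL12, had normalised counts of 908, 520 and 325 in WT and 2804, 1378 and 1581 in POLDIP2 KO. The lines did not overlap, and the log2 difference was 1.77 (limma adjusted p = 0.267). ADAM10 and ADAM17, which shed CXCL16 and CX3CL1, had log2 differences of 0.15 and 0.08, and DPP4, which trims CXCL12 and CCL5, of 0.25 (limma adjusted p = 0.9998 for each). Of 10 genes for factors that bind or degrade chemokine mRNA, 10 were tested and 0 called by limma and by edgeR. At an unadjusted limma p under 0.05 there were 2, against 951 of 14684 genes, and DESeq2 called 1 higher, against 0.756%. ZC3H12A, the RNase regnase-1, had 448, 435 and 477 in WT and 1233, 844 and 815 in POLDIP2 KO, without overlap (log2 difference 1.06, limma adjusted p = 0.130). RC3H2, or roquin-2, had 5205, 4434 and 5206 in WT and 3815, 3802 and 4293 in POLDIP2 KO. It was lower without overlap (log2 difference -0.32, limma adjusted p = 0.615). ZFP36L1 and KHSRP had log2 differences of -0.22 and -0.10, and ZFP36, which binds AU-rich elements, of 0.15 (limma adjusted p = 0.9998 for each).

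Over the 6 libraries, the genes whose pattern was most like that of CCL2 were ENSG00000112096, which the study's gene list names SOD2, with a Pearson r of 0.997 on log2(normalised count + 1), TNFAIP3 with 0.995 and CFAP251 with 0.993. SOD2 is the mitochondrial superoxide dismutase. For CXCL8 they were ADGRE1 with 0.994, CD34 with 0.990 and CHN1 with 0.989. ADGRE1 had normalised counts of 0, 4.01 and 4.18 in WT and 39.4, 45.6 and 32.8 in POLDIP2 KO. It passed the filter only through POLDIP2 KO. Among the members, CXCL2 was the closest to CXCL8 (r = 0.985, rank 6 of the tested genes) and also to CCL2 (r = 0.944, rank 76). CXCL1 was less like CXCL8 (r = 0.735) than like CCL2 (r = 0.939), and CCL5 had an r of -0.19 with CCL2 and of -0.30 with CXCL8. These correlations are descriptions over libraries of 2 lines that differ in many genes at once.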

How the data were processed

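Polyadenylated RNA of WT and POLDIP2 KO cells was sequenced as stranded single-end libraries of 100 bases. The authors quantified reads with Salmon 1.8, used tximport and GRCh38 for gene counts, and divided these by DESeq2 1.34.0 size factors; the deposited signal is that normalised count, and the annotation release is not given in the sources used here. To recover reads, the smallest value above 0 of a column was taken as 1 read; all values were whole within 0.001, which says little in WT replicate 2 and POLDIP2 KO replicate 3, where a read is worth 1.003 and 0.993. 0 columns were left out. Symbols and positions are from GENCODE release 44.

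Limma 3.58.1 (R 4.3.3, lmFit, eBayes with trend) was run on log2(normalised count + 1), a scale that understates the change of low genes, for genes whose mean was at least 10, two-sided, with Benjamini-Hochberg adjustment. Calls needed an adjusted p under 0.05 and a fold change over 1.5. Alternatives included edgeR 4.0.16 and DESeq2 1.42.0 on the recovered reads. The fits were also run on simulated counts with known fold changes and no replicate effects. That is a check of the code and does not bear on the calls in these libraries. An exact permutation test of 3 against 3 libraries cannot go below p = 0.1. Levels per kb use the Ensembl canonical transcript. Counting intervals are exact, at 95%.

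The main test used no replicate block. Replicate numbers were taken to pair the libraries only in the block and in the ratios and differences within a number. Deviations from the line means correlated at 0.315, 0.137 and 0.129 for equal numbers and at -0.259 to 0.147 otherwise, over 14684 genes. The value of 0.147, for WT replicate 3 with POLDIP2 KO replicate 2, was above those of equal numbers 2 and 3. Members and lists were chosen with earlier results of these data known. Beside the members, the genes named were those called or with the 4 smallest p values in a list, the members' receptors (1 is not reported here), other ligands with a mean of at least 10, and the 3 genes most like CCL2 and CXCL8. CXCL9, CXCL10, CXCL11, NFKB1, RELA, TNF, ZFP36, RPE65, TTR, KRT8, KRT18, TYROBP, CD3D, CD3E and MS4A1, and neighbours in the clusters, were named after their values were seen. The study's assays other than RNA sequencing were not analysed here.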

Additional observations from a re-analysis of the deposited data

How the results depend on the processing

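The number of members called higher was 1 in the main test and 0 with edgeR and the replicate block (CCL2 adjusted p = 0.0689), where 5 members still had an unadjusted p under 0.05. It was 4 with DESeq2 (CCL2, CXCL1, CXCL2 and CXCL8, against 0.756% of tested genes called higher) and 5 with DESeq2 and the replicate block (CXCL3 as well, against 1.25%). With 1 library left out it was 0 to 1. It was CXCL8 without WT replicate 1 and 0 members without any of the other 5 libraries, with 5 members at an unadjusted p under 0.05 each time. Genes called numbered 25 in the main test, 16 at a mean of at least 50, 5 with edgeR and the replicate block, 248 with DESeq2, 392 with DESeq2 and the replicate block, and 0 to 5 with a library left out, of which at most 3 were among the 25. At an unadjusted p under 0.05 there were 701 to 1081 genes with a library left out. The summed GRO genes passed with DESeq2 (log2 difference 2.56) and DESeq2 with the replicate block (2.94), and spanned 2.26 to 3.69 with a library left out. The log2 difference of CCL5 was -0.09 and spanned -0.20 to 0.11 with a library left out, turning to 0.11 without POLDIP2 KO replicate 2. Of 132 log2 differences of the 7 tested members under an alternative, those above included, 116 kept their direction and side of the threshold, and the cause of the changes was not tested. The 24 of the 3 members not tested kept their direction. In limma the block changed no other call of a member. Depth limits CCL20, CXCL12 and CX3CL1, whose values rest on few reads.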
